A study of Mus musculus with 4 samples.

Results

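Genes of myelin and of the mature oligodendrocyte, 9 in all, were followed through 4 RNA-seq libraries of mouse brain cells labelled as neurons: Mbp, Mobp, Mog, Mag, Cnp, Mal, Opalin, Ermn and Cldn11. They were taken by gene symbol, and all 9 were found among the 24421 genes of the deposited tables. The study concerns ERK signalling in a mouse model of Noonan syndrome. The 2 excitatory libraries hold cells labelled αCaMKII-positive and the 2 inhibitory libraries hold cells labelled vGAT-positive, with 100 hand-picked fluorescent cells in each library. The αCaMKII-Cre and vGAT-IRES-Cre mouse lines were kept by crossing to wild-type C57Bl/6J mice, and the animals were males of 3 to 5 months. The αCaMKII promoter drives Cre in forebrain glutamatergic neurons, and the vGAT line expresses it from the gene of the vesicular GABA transporter. The labels name no Noonan allele, treatment or reporter for these libraries, and no label ties a library to an animal. The spread behind the p-values is therefore that between libraries, and it may be technical.

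Myelin is the compacted membrane that oligodendrocytes wrap around axons. Its bulk is made of lipid and of a few abundant proteins that hold the membrane layers together, while adhesion proteins face the axon and tight junction proteins seal the layers. Neurons themselves are not a known source of myelin. RNA of several of these genes, Mbp and Mobp among them, is carried out into the oligodendrocyte processes.

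Values below are on the deposited scale, log2(normalized reads + 1), and a difference is the mean of the excitatory values minus the mean of the inhibitory values on that scale. The libraries held 12609 to 12798 genes above 0. Neuronal RNA was present in libraries of both labels, with Snap25, a gene of synaptic vesicle fusion, between 15.98 and 16.63. Camk2a, the gene of αCaMKII, was 1.83-fold higher in excitatory libraries (limma adjusted p = 3.18e-04), and Slc32a1, which encodes vGAT, had a listed 0 in every library. Other genes of neuron identity were mixed. Slc17a7, the vesicular glutamate transporter of cortical excitatory neurons, was present under both labels and did not pass (0.30, limma adjusted p = 0.182). The GABA synthesis genes Gad1 (-0.48, 0.0649) and Gad2 (-0.08, 0.824) were also present under both and did not pass. Slc17a6, another vesicular glutamate transporter gene, had 9.08 and 8.49 in the excitatory libraries and a listed 0 in both inhibitory ones. It passed (8.79, limma adjusted p = 1.06e-04). After median-of-ratios scaling, called scaling below, Camk2a was 1.25-fold higher in excitatory libraries (limma adjusted p = 0.00677). Slc17a7 was at -0.24 (0.312) and Gad2 at -0.62 (0.137). Gad1 was then at -1.02 and Slc17a6 at 8.52, and both passed (0.00768 and 1.37e-04). Excitatory and inhibitory below therefore name libraries by their labels. The median difference of the 13619 genes tested was 0.52, and it was -0.01 after scaling by the median of ratios, which sets the libraries to a common median ratio.

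Myelin gene RNA was found in every library, and most of the myelin genes were higher in the libraries labelled excitatory. Mbp left aside, 6 of the 8 other genes passed limma's test at an adjusted p of 0.05, and all 6 were higher in the excitatory libraries; 2, Mobp and Mog, did not pass. Over all genes tested, 71.8% passed in either direction, 45.0% as higher in the excitatory and 26.8% as higher in the inhibitory libraries. The median difference of the 8 genes was 4.30. With any 1 excitatory library left out, 3 of the 8 passed (Cnp, Mal and Ermn), and with any 1 inhibitory library left out all 6 did. All 8 passed the filter on low values, which asked for 2 or more libraries at 1 or above. Cldn11, counted among the 6, reached 1 in only 1 inhibitory library, so it passed the filter only through its excitatory values. After scaling 7 of the 8 passed (65.9% of all genes tested): the same 6 were higher in the excitatory libraries (32.4%) and Mobp was higher in the inhibitory ones (33.5%). Both excitatory values lay above both inhibitory values for 7 of the 8 genes, as they did for 54.6% of all genes tested, and the reverse held for none of the 8 and for 31.8% of all genes. In libraries of pooled cells, fewer cells of a type and less RNA per cell cannot be told apart.

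**Figure D1:**
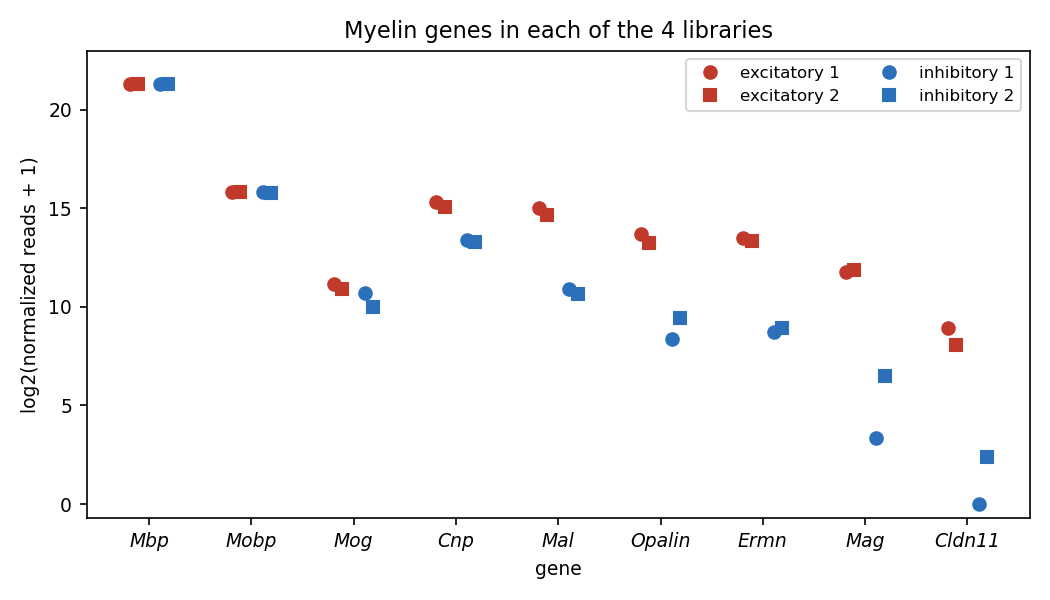
Values (vertical axis, log2(normalized reads + 1)) of the 9 myelin genes (horizontal axis) in each library; circles are replicate 1 and squares replicate 2, red for excitatory and blue for inhibitory. Mbp and Mobp sit at one height in all 4 libraries, while the blue points of Mag and Cldn11 lie lowest and farthest apart.

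Mbp encodes myelin basic protein, which binds the cytoplasmic faces of the membrane together. Its value was 21.33 in all 4 libraries, the highest value of each. It was the only gene above 0 with 1 and the same value in every library. A number that does not vary between libraries whose summed linear values differ gives no comparison between the labels, and none was made. The next highest gene lay 0.23 and 0.26 below Mbp in the excitatory libraries and 0.68 and 0.51 below it in the inhibitory libraries. On the linear scale that value was 3.29% and 3.40% of the summed values in the excitatory libraries and 4.94% and 4.85% in the inhibitory libraries, a contrast that comes from the sums alone.

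Mobp encodes a small basic protein of compact myelin. It had 15.82 and 15.82 in the excitatory libraries and 15.84 and 15.78 in the inhibitory libraries. The groups overlapped, and the whole range over the 4 libraries was 0.062, which 6 of the 13619 genes tested kept to, Mbp and Mobp included (0.0441%). The 0.02 between the labels (SE 0.060) missed the threshold (limma adjusted p = 0.832). Scaling moved it to -0.53 (SE 0.079), which passed as higher in the inhibitory libraries (limma adjusted p = 0.0045, 1.44-fold). The direction of Mobp therefore depended on the scaling.

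Mog encodes an adhesion protein on the outermost myelin layer and a known autoantigen. It had 11.16 and 10.94 in the excitatory libraries and 10.69 and 10.01 in the inhibitory libraries. The groups did not overlap, but the gap between the 2 inhibitory libraries, 0.681, was close to the difference between the labels. That difference, 0.70 (SE 0.29, 1.63-fold), missed the threshold (limma adjusted p = 0.0849), and after scaling it was 0.16 (SE 0.31, 1.12-fold, adjusted p = 0.679). With the replicate number as a block the deposited difference passed (limma adjusted p = 0.0414).

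Cnp encodes an enzyme that binds the cytoskeleton and keeps cytoplasmic channels open in myelin. Its values were 15.30 and 15.09 in the excitatory libraries and 13.38 and 13.32 in the inhibitory libraries. It was the smallest of the differences that passed, at 1.84 (SE 0.11, 3.59-fold, limma adjusted p = 2.09e-04), and it was 2.47-fold after scaling. In GENCODE M21 the exons of Cnp share 154 bases with those of Dnajc7, a chaperone gene on the other strand, whose values ran the other way, at 10.32 and 9.55 against 12.25 and 12.13. The kits named in the labels are not described as marking strand, so reads of the shared bases cannot be assigned to either gene.

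Mal encodes a membrane protein of lipid rafts that takes part in sorting proteins to myelin. It had 15.01 and 14.66 in the excitatory libraries and 10.91 and 10.66 in the inhibitory libraries. The gap between the labels was far wider than that within either of them, with a difference of 4.05 (SE 0.18, 16.6-fold, limma adjusted p = 1.09e-04). After scaling the difference of Mal was 11.4-fold. Opalin, a membrane protein gene of late oligodendrocyte maturation, had 13.70 and 13.23 against 8.37 and 9.45. Its difference was 4.56 (SE 0.42, 23.5-fold, limma adjusted p = 7.26e-04), and the 2 inhibitory libraries stood 1.09 apart. Scaling brought it to 16.2-fold. Opalin lost its call when either excitatory library was left out (limma adjusted p = 0.0687 for replicate 1 and 0.0613 for replicate 2, an order kept below).

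Ermn encodes ermin, an actin-binding protein of the oligodendrocyte cytoplasm. It had 13.48 and 13.36 in the excitatory libraries and 8.75 and 8.94 in the inhibitory libraries. Both pairs agreed within 0.19, and the difference of 4.58 (SE 0.17, 23.9-fold) had the lowest adjusted p of the 8 genes (limma, 9.49e-05). After scaling Ermn was 16.4-fold higher in the excitatory libraries. Its exons share 237 bases with those of Galnt5 on the other strand, which was listed at 0 in all 4 libraries.

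On the deposited scale Mag and Cldn11 showed the widest gaps and the least even inhibitory libraries. Mag encodes a sialic acid-binding adhesion protein on the myelin layer that faces the axon. It had 11.79 and 11.87 in the excitatory libraries and 3.33 and 6.48 in the inhibitory libraries. The excitatory pair differed by 0.082 and the inhibitory pair by 3.15. The difference, 84.8-fold after scaling, was 6.93 in the deposited values (SE 1.07, 122-fold, limma adjusted p = 0.00391). It became 5.36 without inhibitory replicate 1 and 8.51 without inhibitory replicate 2, both of which passed, and it did not pass when either excitatory library was left out (limma adjusted p = 0.136 and 0.137).

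Cldn11 encodes the claudin of the tight junctions between myelin layers. It had 8.94 and 8.06 in the excitatory libraries, was listed at 0 in inhibitory replicate 1 and had 2.38 in inhibitory replicate 2. The groups did not overlap. On this scale the difference was 7.31 (SE 0.90, limma adjusted p = 0.00185). Its size depends on the constant added before the logarithm: with 16 in place of 1 it was 4.39, which passed as well. With that constant Mag was at 6.17, Ermn at 4.54 and Opalin at 4.51, so the difference of Cldn11 was no longer the widest. No fold is given for Cldn11, since 1 of the 2 inhibitory values is a listed 0, and the call was lost when either excitatory library was left out (limma adjusted p = 0.099 and 0.0856).

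**Figure D2:**
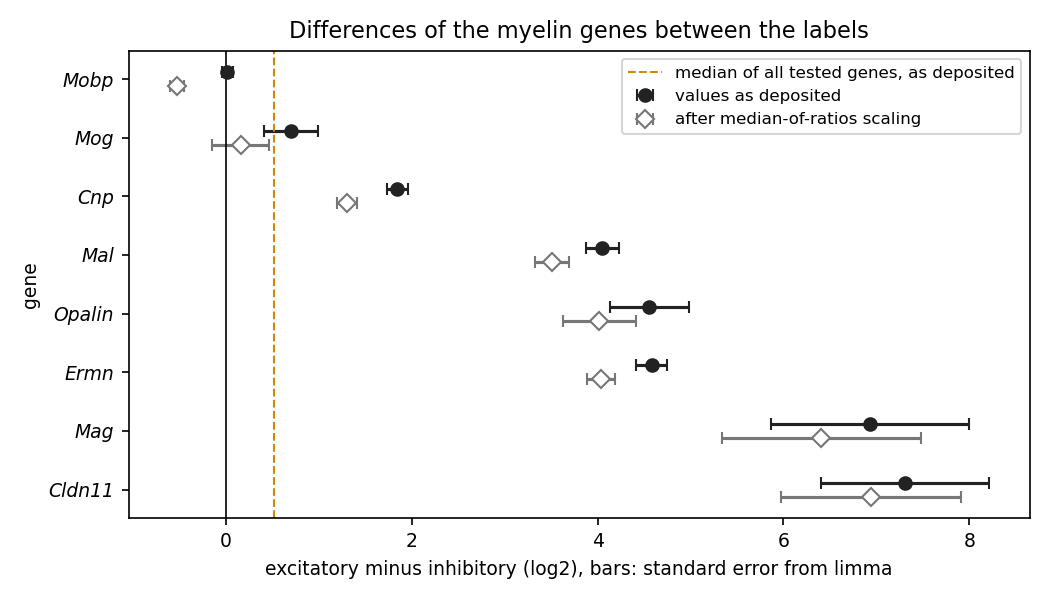
Difference between the labels (horizontal axis, excitatory minus inhibitory, log2) for the 8 genes compared, with limma's standard error as bars; filled circles are the deposited values, open diamonds the values after median-of-ratios scaling, and the dashed line is the median of all genes tested, 0.52. The genes spread from Mobp, near 0 or below, to Mag and Cldn11, near 7.

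Among the genes tested, differences of this size were common. A difference at least as high as that of Mal was seen for 13.8% of them, of Opalin or Ermn for 12.5%, of Mag for 6.84% and of Cldn11 for 6.09%. For Cnp the share was 25.5%, for Mog 45.0% and for Mobp 61.5%. Among the 5021 genes with a mean value of at least 10, the shares were 0.876% for Mal, 0.518% for Opalin, 0.498% for Ermn, 11.2% for Cnp, 44.2% for Mog and 73.3% for Mobp; Mag and Cldn11 have lower means. These shares describe the genes and are no test.

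The proportions of the myelin genes to one another within a library do not depend on the scaling. Levels were divided by the length of the gene's exons in GENCODE M21 and set against Mobp in the same library, as log2 ratios per kilobase. Cnp was at 0.39 and 0.18 in the excitatory libraries and at -1.54 in both inhibitory libraries. Mal was at 0.49 and 0.14 against -3.63 and -3.82. Thus both genes had levels per kilobase just above that of Mobp in one pair of libraries and well below it in the other. Before division by length, Mobp lay above both in every library. The order in the excitatory libraries therefore rests on the lengths of all annotated exons (6849 bases for Mobp, 3639 for Cnp and 2778 for Mal). Opalin was at -0.91 and -1.37 in the excitatory and at -6.26 and -5.11 in the inhibitory libraries, and Ermn at -1.43 and -1.55 against -6.18 and -5.93. Mag was at -3.28 and -3.20 against -11.91 and -8.57. Mog, at -2.66 and -2.88 against -3.14 and -3.76, kept closest to a constant proportion of Mobp among the 6 genes for which a ratio could be formed in all libraries, Mbp left aside. With 2 libraries against 2, the smallest p an exact two-sided permutation test can give is 0.333, so these ratios were not tested.

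**Figure D3:**
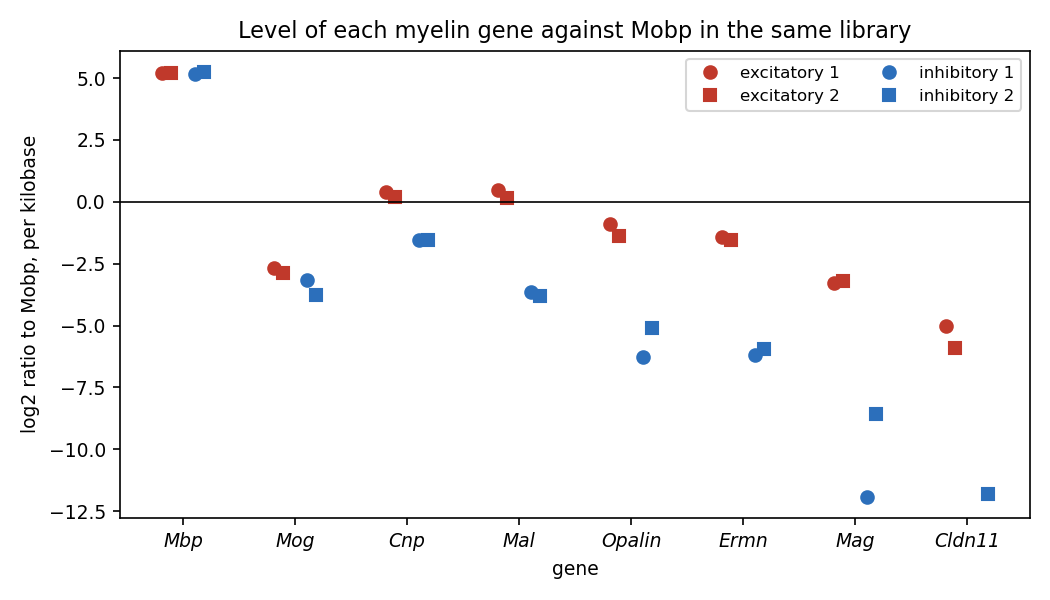
log2 ratio of each gene's level per kilobase to that of Mobp in the same library (vertical axis), by gene (horizontal axis); circles are replicate 1 and squares replicate 2, red for excitatory and blue for inhibitory. Mog stays between -2.66 and -3.76, while Mag runs from -3.20 to -11.91; Cldn11 has no point for inhibitory replicate 1, where it is listed at 0.

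In order of level per kilobase, Mbp ranked 7 in both excitatory and 4 in both inhibitory libraries among 23334 genes with a length. Mobp followed at 564 and 545 in excitatory libraries and 344 and 384 in inhibitory ones. In the excitatory libraries Mal (387 and 493) and Cnp (424 and 474) stood just above Mobp and changed places with each other between the 2 libraries. Then came Opalin (978 and 1265), Ermn (1339 and 1406), Mog (2563 and 2800), Mag (3376 and 3187) and Cldn11 (5772 and 6835). In the inhibitory libraries Mobp was followed by Cnp (1002 and 1085), and Mog (2444 and 3278) and Mal (3023 and 3355) overlapped in rank. Opalin (6773 and 5245) and Ermn (6683 and 6442) overlapped as well, and Mag (10695 and 9048) and Cldn11 (12080 and 10929) came after them. The 8 genes other than Mbp made up 0.203% and 0.187% of the summed linear values in the excitatory and 0.138% and 0.129% in the inhibitory libraries.

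The 8 genes compared lie on 7 chromosomes of mm10. Ermn spans chr2:58045113-58052864 and Mal chr2:127633226-127656695, both on the minus strand. Cldn11 spans chr3:31149920-31164324 (plus strand), Mag chr7:30899176-30914873 (minus), Mobp chr9:120149707-120181484 (plus), Cnp chr11:100574904-100591729 (plus), Mog chr17:37010743-37023398 (minus) and Opalin chr19:41061710-41077113 (minus), in GENCODE M21 coordinates.

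The sequence before the start of 3 of these genes is shown as examples. Mag had a wide gap between the labels, though on the deposited scale Cldn11 had a wider one. Cnp had the smallest gap that passed, and Mobp had none in the deposited values. Sequences are from RefSeq (GRCm38.p6, the same assembly as mm10), 5′ to 3′ on the gene's strand, and end before the first annotated exon. Capitals mark CTGGCAC, the core of the motif of MYRF, the transcription factor that switches on myelin genes, and ACAAAG or its reverse complement, a core of SOX factor motifs; the oligodendrocyte factor SOX10 is of this family.
Mag, chr7:30914923-30915172, minus strand: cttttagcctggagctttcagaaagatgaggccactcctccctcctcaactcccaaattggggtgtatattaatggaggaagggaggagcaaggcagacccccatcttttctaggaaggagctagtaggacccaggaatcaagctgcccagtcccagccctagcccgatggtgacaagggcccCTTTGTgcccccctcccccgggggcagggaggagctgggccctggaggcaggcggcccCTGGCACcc
Cnp, chr11:100574689-100574903, plus strand: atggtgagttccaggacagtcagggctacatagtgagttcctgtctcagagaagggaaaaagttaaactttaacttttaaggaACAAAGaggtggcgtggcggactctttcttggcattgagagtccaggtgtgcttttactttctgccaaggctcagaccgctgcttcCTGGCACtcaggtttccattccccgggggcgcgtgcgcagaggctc
Mobp, chr9:120149492-120149706, plus strand: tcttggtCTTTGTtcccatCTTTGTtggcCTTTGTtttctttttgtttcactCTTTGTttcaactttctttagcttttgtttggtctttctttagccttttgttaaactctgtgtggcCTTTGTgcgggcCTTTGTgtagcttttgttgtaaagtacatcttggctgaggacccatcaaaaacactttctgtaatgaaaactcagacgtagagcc

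Both strands were searched in the 250 bases before every RefSeq gene start, 32851 windows in all, of which 10 belong to the 8 genes. CTGGCAC was found in 3 of the 10 windows, which belong to 2 of the 8 genes, Mag and Cnp, and in 4.19% of all windows. In Mag it begins 9 bases before the upstream start shown here. In Cnp it begins 81 bases before the RefSeq start, which lies 36 bases past the last base shown. A second SOX core, AACAAT, was found for none of the 8 genes and in 9.42% of all windows. ACAAAG, searched after the sequences had been seen, was found in 5 of the 10 windows and in 16.5% of all windows. The 5 belong to 4 of the 8 genes (Mag, Cnp, Opalin and Mobp). For both CTGGCAC and ACAAAG, overlapping windows of Mag hold the same match. The windows of Cldn11, Mal, Ermn and Mog held no match to any of these motifs. The Mobp window held 6 matches and was the only 1 of the 32851 with so many (0.00304%). None of these motifs overlapped another in the stretches shown, and a match is a description of the letters, not of a bound site.

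Other genes of the oligodendrocyte and of its contact with the axon were compared as 8 lists, chosen with earlier results of these data known. Of their 115 tested genes, 69 were higher in excitatory libraries and 19 in inhibitory ones (53 and 28 after scaling). Over all genes tested the shares were 45.0% and 26.8% (32.4% and 33.5% after scaling), against which the counts of each list are to be read. A gene at 0 in both libraries of 1 label passed the filter only through the other label, so the filter fixed its direction. The counts and the shares of all genes include such genes in both directions. The 115 genes had a median difference of 0.97 against 0.52 over all genes tested. With any 1 library left out, 45 to 49 were higher in excitatory libraries and 9 to 11 in inhibitory ones. The lists of other myelin membrane and junction genes, of myelin lipid synthesis and of other cytosolic and secreted products leaned the way of the myelin genes. The precursor list and the list of receptors for myelin proteins did not. The precursor, oligodendrocyte receptor and transcription factor lists had about the share of genes higher in excitatory libraries that all genes had in the deposited values.

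Of 20 other myelin membrane and junction genes, 15 were higher in excitatory libraries and 2 in inhibitory ones, with a median of 1.69 (12 and 2 after scaling). Gjb1, a connexin gene of gap junctions, had 11.81 and 11.31 in the excitatory libraries and no value above 0 in an inhibitory library. The same held for Cd82, a tetraspanin gene with 10.05 and 9.48, and Tmem125 had 10.25 and 9.47 against 0.48 and 0. In the other direction, Hapln2, which encodes a link protein of the matrix at nodes of Ranvier, had 0 and 0 in excitatory against 6.93 and 7.63 in inhibitory libraries. Evi2b had 0 and 2.89 against 8.59 and 8.31, and did not pass when either inhibitory library was left out (limma adjusted p = 0.119 and 0.111).

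Of 17 tested genes of myelin lipid synthesis, 12 were higher in excitatory libraries and 2 in inhibitory ones, with a median of 2.76 (11 and 3 after scaling). Fa2h, which hydroxylates the fatty acids of myelin sphingolipids, had 9.67 and 9.53 against 0 and 0. Sptlc2, a subunit gene of the first enzyme of sphingolipid synthesis, had 10.29 and 9.87 against 0 and 0. Ugt8a, which makes galactosylceramide, had 12.71 and 12.30 against 1.08 and 2.97, and Elovl1, a fatty acid elongase gene, 12.15 and 11.82 against 0 and 1.38. Early cholesterol synthesis ran the other way for Hmgcs1 (-0.92, SE 0.13, limma adjusted p = 0.00284), which did not hold when either inhibitory library was left out (limma adjusted p = 0.0753 and 0.0816). The desaturase gene Scd1 differed by -0.59 (SE 0.14, adjusted p = 0.0162), which ended when either excitatory library was left out (limma adjusted p = 0.15 and 0.145) and without a trend in the variance (0.0632).

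Of 25 tested genes of other cytosolic and secreted oligodendrocyte products, 18 were higher in excitatory libraries and 3 in inhibitory ones, with a median of 0.96 (12 and 6 after scaling). Enpp2, which encodes the secreted enzyme autotaxin, had 16.97 and 16.53 against 11.09 and 11.36. Dock10, a guanine nucleotide exchange factor gene, had 13.56 and 12.95 against 2.51 and 3.80, and Ndrg1 was 3.84 higher (SE 0.27, 14.3-fold). Plekhb1 was 0.64 higher (SE 0.03, limma adjusted p = 1.52e-04) and did not pass after scaling (0.256). Tppp, a tubulin-binding protein gene, was lower in excitatory libraries (-1.12, SE 0.13, limma adjusted p = 0.0016), which did not hold when either inhibitory library was left out (limma adjusted p = 0.0526 and 0.0543). Pex5l (-1.02, adjusted p = 0.0297) and Mbnl2 (-0.42, 0.0331) lost their calls without any 1 of the 4 libraries, Mbnl2 also without a trend in the variance (0.128).

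Among 6 tested oligodendrocyte receptor genes, 3 were higher in the excitatory libraries and 1 in the inhibitory ones, before scaling as well as after it, beside 45.0% and 26.8% of all genes before it. Gpr37, an orphan receptor gene of maturing oligodendrocytes, had 12.64 and 12.25 against 1.08 and 0. S1pr5, a sphingosine 1-phosphate receptor gene, was 3.46 higher (SE 0.42) and Adora1, an adenosine receptor gene that neurons express too, 1.60 higher (SE 0.18). S1pr5 lost its call when either excitatory library was left out (limma adjusted p = 0.093 and 0.0855), and Adora1 when either inhibitory library was left out (limma adjusted p = 0.076 and 0.0708). Gpr62 was lower in excitatory libraries (-1.77, SE 0.35), a call lost without any 1 library (0.0563 to 0.118). Erbb3 was listed at 0 in all 4 libraries.

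Of 12 tested transcription factor genes of the lineage, 6 were higher in excitatory libraries and 1 in inhibitory ones, with a median of 0.90 (4 and 2 after scaling). The 6 are near the 45.0% of all genes, and the 4 near the 32.4% after scaling. Nkx6-2 had 10.90 and 10.44 against 0 and 0. Nkx2-2 had 6.39 and 7.18 against 1.82 and 0, and Zfp536 7.11 and 5.55 against 1.07 and 1.79; each lost its call when either library of 1 label was left out, Nkx2-2 of the excitatory (limma adjusted p = 0.0807 and 0.0937) and Zfp536 of the inhibitory (0.0933 and 0.0768). Zeb2 was 0.97 higher in excitatory libraries (SE 0.18, limma adjusted p = 0.00715) and did not pass after scaling (0.123) or when either inhibitory library was left out (limma adjusted p = 0.125 and 0.121). Olig2 was higher in the inhibitory libraries, with 1.98 and 1.90 against 4.92 and 4.13, which did not pass when either excitatory library was left out (limma adjusted p = 0.0856 and 0.0881). Myrf had 4.55 and 4.69 against 5.48 and 6.60 and did not pass in the deposited values (limma adjusted p = 0.0528). Sox10 had 3.94 and 1.32 against 0 and 0 and did not pass either (0.0572). Myrf and Sox10 were named after their values were seen, because their motifs were searched.

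Of 9 tested genes of oligodendrocyte precursors, 4 were higher on each side (4 and 5 after scaling), and the 4 higher in excitatory libraries are near the 45.0% of all genes. The growth factor receptor gene Pdgfra, which defines the precursor, had 0 and 0 in excitatory against 10.84 and 11.51 in inhibitory libraries. Vcan (0.43 and 1.90 against 9.44 and 9.18) and Lhfpl3 (2.39 and 2.89 against 11.13 and 11.70) were also higher in the inhibitory libraries. Enpp6, which marks newly forming oligodendrocytes, had 3.55 and 3.63 against 7.53 and 8.02. In the other direction, Gpr17, a receptor gene of the cells between precursor and mature stage, had 7.66 and 7.66 against 0 and 0, and C1ql1 9.65 and 9.71 against 0 and 0. Matn4 was 2.27 higher (SE 0.37), which did not pass without excitatory replicate 2 (limma adjusted p = 0.0516), and Bmp4 2.40 higher (SE 0.56), which did not pass without any 1 library (0.0729 to 0.161). A second precursor marker, Cspg4, was at 0 in 3 libraries and at 1.83 in inhibitory replicate 2.

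Neurons read Mag and other myelin proteins through receptors and gangliosides on the axon, and these genes were tested as a list of 13. Of 11 tested, 2 were higher in excitatory libraries and 3 in inhibitory ones, with a median of -0.08 (1 and 5 after scaling). The Nogo receptor family was split: Rtn4rl2 had 8.39 and 7.92 against 0 and 0, while Rtn4rl1 had 7.10 and 7.13 against 9.96 and 9.87. Rtn4r, the Nogo receptor gene itself, had 0.44 and 0 against 3.24 and 2.12, which did not hold without excitatory replicate 1 (limma adjusted p = 0.123), excitatory replicate 2 (0.151) or inhibitory replicate 1 (0.0566), or with 16 as the added constant (0.0839). B4galnt1, which makes the gangliosides that Mag binds, was lower in excitatory libraries (-1.32, SE 0.31), which did not hold without excitatory replicate 1 (limma adjusted p = 0.176), excitatory replicate 2 (0.144) or inhibitory replicate 2 (0.0788). The Nogo co-receptor gene Lingo1 was 1.04 higher (SE 0.35, limma adjusted p = 0.0499) and did not pass after scaling (0.271), without any 1 library (0.111 to 0.274), without a filter on low values (0.0575), with a stricter one (0.0561) or without a trend in the variance (0.0587). Pirb and St3gal3 were listed at 0 in all 4 libraries.

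Of 15 tested axonal partners of myelin, 9 were higher in excitatory libraries and 3 in inhibitory ones, with a median of 0.77 (6 and 4 after scaling, near the 32.4% and 33.5% of all genes). Nrg1, the axonal growth factor gene that regulates myelination, had 8.44 and 9.21 against 0 and 0. The nodal sodium channel gene Scn8a was 3.17 higher (SE 0.17, 8.98-fold), the potassium channel gene Kcna1, of the region beside the paranode, 3.30 higher (SE 0.27, 9.82-fold) and the scaffold gene Ank2 1.30 higher (SE 0.10). Cadm3, an axonal adhesion gene, had 0.43 and 1.90 against 6.69 and 7.42, and Nrcam was lower in excitatory libraries (-1.58, SE 0.19). Cadm3 and Nrcam lost their calls without inhibitory replicate 1 (limma adjusted p = 0.0586 and 0.0684) or inhibitory replicate 2 (0.0667 and 0.063), and Cntn1 (-0.50, adjusted p = 0.0267) without any 1 library (0.0864 to 0.218) and without a trend in the variance (0.106).

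**Figure D4:**
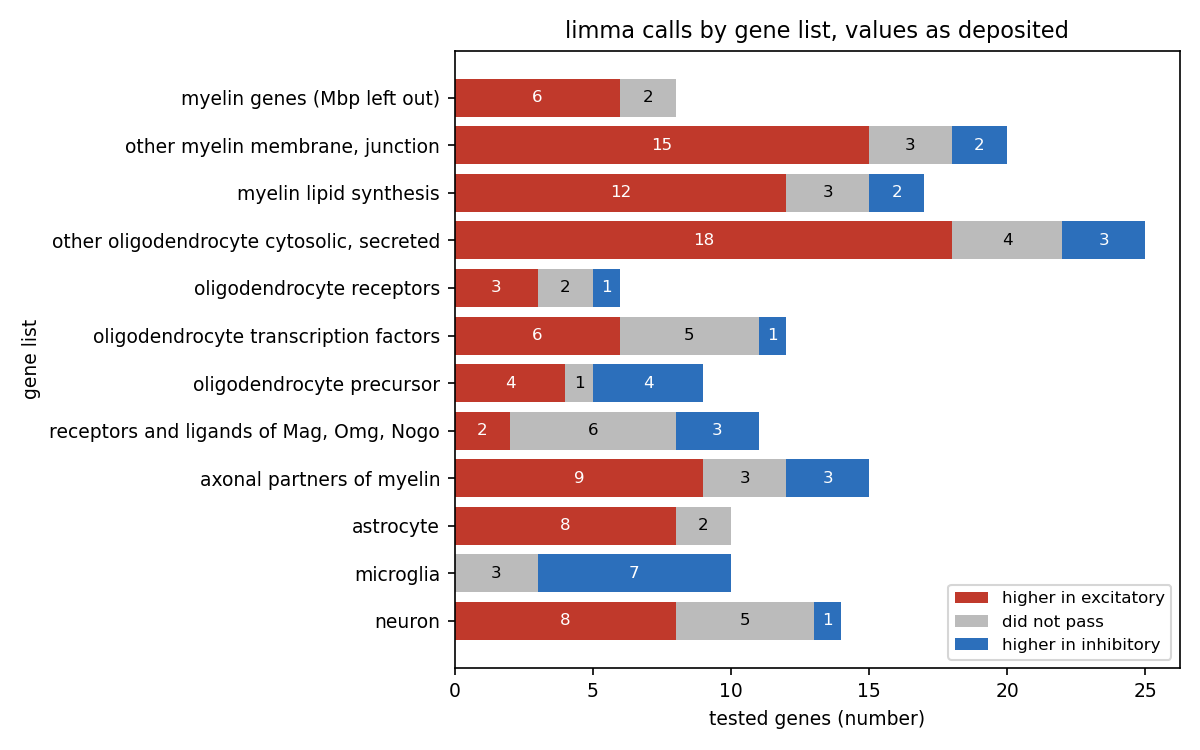
Number of tested genes (horizontal axis) of each list (vertical axis) that were higher in the excitatory libraries (red), did not pass limma's test (grey) or were higher in the inhibitory libraries (blue), in the deposited values. Red takes most of the bars of the myelin genes, other membrane and junction genes, lipid synthesis and cytosolic and secreted products, the precursor bar is evenly split, and the microglia bar holds no red.

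Markers of other cell types were counted in the same way, against 45.0% of all genes higher in excitatory and 26.8% in inhibitory libraries (32.4% and 33.5% after scaling). Of 10 astrocyte markers, 8 were higher in the excitatory libraries (4 after scaling, when 2 were higher in the inhibitory ones), and their summed linear values were 2.61% to 2.66% of the total in the excitatory and 2.21% to 2.39% in the inhibitory libraries. Of 10 microglia markers, none was higher in excitatory libraries and 7 were in inhibitory ones (9 after scaling), with sums of 0.0742% to 0.0798% and 0.256% to 0.306%. All 10 markers of each of these lists were above 0 in every library. Of 14 tested neuronal markers, 8 were higher in the excitatory libraries and 1 was higher in the inhibitory libraries (4 and 3 after scaling, no more than the shares of all genes), with sums of 0.393% to 0.395% and 0.361% to 0.37%. With any 1 library left out, 4 to 6 astrocyte and 5 to 6 neuronal markers were higher in the excitatory libraries, and 5 to 6 microglia markers in the inhibitory ones. The part of these cells in the myelin gene differences was not tested.

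The gene with the pattern most like each member, Mbp left aside, was found from the 4 values after each gene's own mean was subtracted, among 9450 genes with a mean of at least 5, by the smallest root mean square difference. For Cnp it was Srcin1 (0.0081 log2 units), for Mobp Egln2 (0.013), for Mog BC003965 (0.033) and for Mal Glg1 (0.037). For Ermn it was D16Ertd472e (0.080), for Opalin Dctn4 (0.084), for Cldn11 Kif13a (0.15) and for Mag Pik3ip1 (0.16). Pik3ip1 had 8.52 and 8.93 against 0.47 and 3.39, and Kif13a 10.45 and 9.87 against 1.83 and 3.89, with the lower of the inhibitory values in replicate 1, as for Mag and Cldn11.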

How the data were processed

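RNA of 4 libraries (2 excitatory, 2 inhibitory, by their titles) was made into cDNA with the SMART-seq v4 kit and into libraries with Nextera XT, per the labels' protocols. The authors' deposited tables hold log2 values of normalized reads plus 1 for 24421 genes. TopHat, edgeR and mm10 are named in the submitters' processing notes; versions, counter and gene models are not stated there. Read counts, and so intervals for counting error, were not derived, and the linear values sum to 53400000 to 80200000 per library. The labels were compared with limma 3.58.1 (R 4.3.3, trend in the variance) over the 13619 genes that reached 1 in 2 or more libraries; p-values were adjusted by Benjamini-Hochberg over these genes, and 0.05 was the threshold. Of all symbols 95.5% matched 1 gene of GENCODE M21. Members and lists were chosen with earlier results of these data known. All members are named, and of each list up to 4 genes past the threshold per direction, by smallest adjusted p. Fewer are named for the lists of other cell types, and some list genes are not reported here. Alternatives were 2 scalings, 2 filters, another added constant, no trend, a replicate block and leaving out each library.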

Additional observations from a re-analysis of the deposited data

How the results depend on the processing

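The direction of Mal, Ermn, Cnp, Opalin, Mag, Cldn11 and Mog was the same under all 11 alternatives, and Mal, Ermn and Cnp also kept their calls. Mobp turned under median-of-ratios scaling (-0.53), upper-quartile scaling (-0.51) and without inhibitory replicate 2 (-0.0155; 0.014 to 0.0465 without any of the other 3 libraries), and under both scalings 1 myelin gene, Mobp, was higher in the inhibitory libraries, against 0 in the deposited values. Without any 1 library 3 to 6 myelin genes passed, 3 to 6 of them higher in the excitatory libraries; 3 passed when either excitatory library was left out, with fewer libraries fitted. Over all genes the counts without any 1 library were 6103 to 6551, with 3530 to 4241 higher in excitatory libraries and 2310 to 2627 in inhibitory ones, against 9777, 6122 and 3655. Of the 8 other lists 54 to 60 genes passed, 45 to 49 and 9 to 11 by direction, against 88, 69 and 19. The replicate numbers showed no shift shared by the 2 labels (correlation of their deviations -0.00193 across genes). The labels name no batch or animal, so this cannot show whether the libraries were paired. With the replicate block 9782 genes passed, and among the myelin genes the block changed the call of Mog (limma adjusted p = 0.0414). DESeq2 was not run, since the tables hold no counts.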

Other observations

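Genes of the myelin of peripheral nerve, made by Schwann cells, were measured as well. Pmp2, Prx and Egr2 were listed at 0 in all 4 libraries, and Ncmap only had a value, 2.41, in inhibitory replicate 2. Pmp22, which many other cells express, had 9.01 and 9.15 in the excitatory and 11.98 and 11.89 in the inhibitory libraries (difference -2.85, SE 0.18, limma adjusted p = 2.41e-04).

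Of 10 markers of endothelial and mural cells, 5 were listed at 0 in all 4 libraries, Cldn5 and the mural cell gene Vtn among them. Of 4 tested, 3 were higher in the excitatory libraries and none in the inhibitory ones, before scaling and after it. Over all genes tested the shares were 45.0% and 26.8% (32.4% and 33.5% after scaling). The 3 were Pdgfrb (8 and 7.72 against 0 and 0), Rgs5 (9.80 and 10.04 against 1.83 and 1.80) and, at low values, Flt1 (1.37 and 1.87 against 0 and 0). Pdgfrb and Flt1 passed the filter on low values only through the excitatory libraries, so the filter fixed their direction. The mural cell gene Acta2 did not pass (0.26, limma adjusted p = 0.594). Flt1 lost its call when either inhibitory library was left out and with the replicate block (limma adjusted p = 0.0591). With 16 as the added constant its difference was 0.18 (limma adjusted p = 0.318) against 1.62.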
